A study of Mus musculus with 8 samples.

Results

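Lce3e, Lce3f and Rptn encode late components of the cornified envelope, and they were examined on 8 Affymetrix Gene Mouse 2.0 ST arrays of adult mouse ear skin. They were taken as the 3 genes of these symbols among the 3024 genes named in the authors' deposited table of differences, out of 33793 probe sets measured. Each had 1 probe set in that table, and any probe set of these genes outside it could not be recognised by name. The symbols could enter that table only through their difference between the groups on these same arrays, so their KO against WT differences are given as a description, without a test.

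The arrays came from 4 KO mice of genotype KRT14-CreERT2(tg/0)/Cdsnfl/fl and 4 WT mice of genotype KRT14-CreERT2(tg/0)/Cdsnwt/wt, on a background labelled C57B/6J. All 8 mice carried the recombinase transgene, which a KRT14 promoter drives in basal keratinocytes, and all received 4-hydroxytamoxifen on both ears at 100 µg per ear daily for up to 15 days from an age of 7 to 12 weeks. The deleted gene, Cdsn, encodes corneodesmosin, an adhesive glycoprotein of the junctions between cornified cells. Whole ear skin was extracted, so a smaller or larger share of keratinocytes and less or more RNA per cell cannot be told apart.

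The cornified envelope is the crosslinked protein shell that replaces the plasma membrane of keratinocytes as they reach the skin surface. Transglutaminases join its precursors, among them involucrin, loricrin, the small proline-rich proteins and, late in the process, the late cornified envelope (LCE) proteins. In human skin the LCE3 genes are little expressed in intact epidermis and are induced when the barrier is injured and in psoriatic plaques. Repetin, the product of Rptn, belongs to the fused S100 family with filaggrin, hornerin and trichohyalin: it has calcium-binding EF-hands at its N-terminus followed by tandem repeats, and it is an envelope precursor of the upper epidermis, the tongue and the forestomach. These genes lie together in the epidermal differentiation complex of mouse chromosome 3.

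Before the results, WT replicate 1 has to be singled out. On the first principal component of all probe sets, which held 50.4% of the variance, it lay at 2.60, between KO replicates 3 and 4 (-4.47 and -6.84) and the other WT arrays (43.5 to 50.5), while -75.3 and -57.8 were the places of KO replicates 1 and 2. Its Cdsn value, 12.05 on the log2 scale, was that of a WT array: the other WT arrays read 11.76 to 12.13 and the KO arrays 8.89 to 10.31. Cdsn fell to 19.3% of its WT level (log2 difference -2.37, SE 0.26, limma adjusted p = 0.00203; exact two-sided permutation p = 0.0286, the smallest that 4 against 4 arrays allow). The median log2 value of an array was 5.52 to 5.59 for KO and 5.43 to 5.49 for WT.

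The sequences just before the start sites show how the members relate to one another. The 250 bases before each start are printed 5′ to 3′ from RefSeq (GRCm38.p6), all on the plus strand, at chr3:92966811-92967060 for Lce3e, chr3:92991967-92992216 for Lce3f and chr3:93393449-93393698 for Rptn. Capitals mark, in Lce3e and Lce3f, the longest run of bases that both windows share and, in Rptn, a TATAAA box and a TGANTCA match.
Lce3e: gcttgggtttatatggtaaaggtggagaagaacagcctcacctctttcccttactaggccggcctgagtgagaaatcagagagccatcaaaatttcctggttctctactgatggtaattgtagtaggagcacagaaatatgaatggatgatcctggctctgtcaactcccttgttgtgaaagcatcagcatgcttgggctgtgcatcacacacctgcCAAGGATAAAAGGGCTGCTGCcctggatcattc
Lce3f: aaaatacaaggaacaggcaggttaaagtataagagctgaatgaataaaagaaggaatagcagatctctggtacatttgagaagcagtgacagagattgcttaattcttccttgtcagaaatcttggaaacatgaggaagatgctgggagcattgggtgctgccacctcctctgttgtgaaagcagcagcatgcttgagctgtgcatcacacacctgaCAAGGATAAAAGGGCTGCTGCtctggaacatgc
Rptn: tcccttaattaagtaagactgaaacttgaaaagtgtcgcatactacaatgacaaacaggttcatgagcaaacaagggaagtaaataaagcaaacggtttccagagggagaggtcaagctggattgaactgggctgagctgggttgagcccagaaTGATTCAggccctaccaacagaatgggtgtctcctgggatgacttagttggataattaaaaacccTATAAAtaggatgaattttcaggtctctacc

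The run shared by Lce3e and Lce3f is 21 bases long and begins 33 bases before the start in both genes. It was found in 3 of 32536 distinct promoter windows of the reference, those of Lce3d, Lce3e and Lce3f. Over the whole window, 59.8% of alignment columns were identical between Lce3e and Lce3f. Rptn was 46.2% identical to Lce3e and 48.2% to Lce3f, within the 45.1% to 52.2% found between the same Lce3 genes and the Lce1 genes. The similarity between windows therefore separates Lce3c, Lce3d, Lce3e and Lce3f, at 59.8% to 82.8% between any pair, from Rptn. Stretches of 35 bases around the last TAAAA (capitals) of the other Lce3 windows are shown because none of these genes is in the authors' deposited table, although the windows of Lce3c and Lce3d are 77.9% and 82.8% identical to that of Lce3e.
Lce3a: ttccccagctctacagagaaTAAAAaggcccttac
Lce3b: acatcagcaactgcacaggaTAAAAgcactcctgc
Lce3c: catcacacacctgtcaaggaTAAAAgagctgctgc
Lce3d: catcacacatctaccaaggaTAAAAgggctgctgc
These lie at chr3:92926259-92926293 (minus strand), chr3:92932931-92932965, chr3:92944439-92944473 and chr3:92957341-92957375 (plus strand) of GRCm38.p6.

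**Figure D1:**
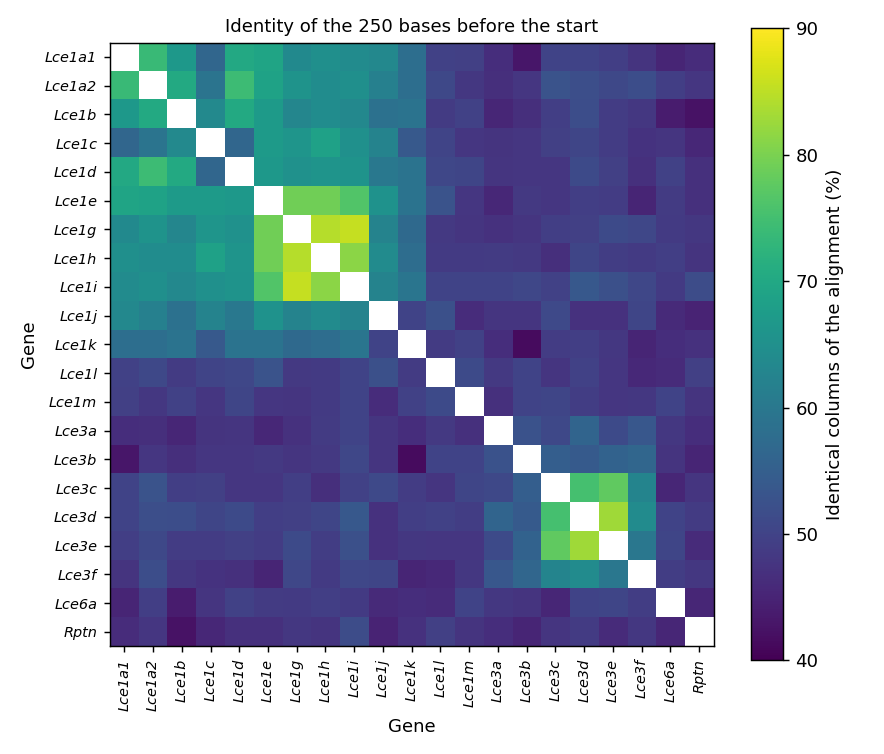
Percent of identical alignment columns between the 250-base windows before the start of 20 late cornified envelope genes and Rptn (colour; both axes list the genes, the diagonal is blank). Lce3c to Lce3f form a block of 59.8% to 82.8%, and Rptn stays at 45.1% to 48.8% with every Lce3 gene.

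Motifs were searched on both strands of these windows. GGATAAAAG, taken from the shared run, stood in 5 of 20 late cornified envelope windows, those of Lce3b to Lce3f, 30 to 32 bases before the start, and in 0.237% of all windows. TATAAA was in 12.3% of all windows; in Rptn it lay 31 bases before the start. TGANTCA, a relaxed form of the element bound by AP-1 (Fos and Jun family dimers), was in 6.73% of all windows, in 0 of the 20 late cornified envelope windows and in 5 of the 7 fused S100 windows, Rptn included, where it began 96 bases before the start. AACCNGTT, a relaxed grainyhead element, was in 1.79% of all windows and in Rptn alone among the 3 genes. TTGNNCAA was in 5.61% of all windows and in none of the 3. The window of Lce3f held no TATAAA, and that of Lce3e held it only on the opposite strand, 243 bases before the start. A match describes these letters in this window and nothing of a factor.

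Lce3e, the first of the neighbouring LCE3 pair, was far higher in KO than in 3 of the 4 WT arrays. Its KO arrays read 9.19, 9.57, 6.95 and 6.28 on the RMA log2 scale, replicates 1 to 4 in turn, and its WT arrays read 7.18, 3.27, 3.40 and 3.85. WT replicate 1 lay above KO replicates 3 and 4, so the groups overlapped, while WT replicates 2 to 4 were at least 2.43 log2 units below the lowest KO array. The KO mean was 7.99 ± 1.63 and the WT mean 4.42 ± 1.85 (SD, n = 4 per group). They differed by 3.57 log2 units (SE 0.997), or 11.9-fold. Without WT replicate 1 the difference was 4.49 (SE 0.76), or 22.5-fold. The probe set has 13 probes, per the authors' deposited table.

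Lce3f, its neighbour on the chromosome, showed the same split of the arrays. KO replicates 1 to 4 read 9.46, 10.10, 7.13 and 6.79, and WT replicates 1 to 4 read 7.52, 4.03, 2.94 and 3.70. Again WT replicate 1 stood within the KO range and the other WT arrays below it, by 2.76 log2 units or more. The KO mean of 8.37 ± 1.66 and the WT mean of 4.55 ± 2.03 (SD, n = 4 per group) gave a difference of 3.82 log2 units (SE 1.06), or 14.2-fold, which became 4.81 (SE 0.79), or 28.1-fold, without WT replicate 1. Its 9 probes are the fewest of the 3 probe sets. WT replicates 2 to 4 read 2.94 to 4.03 for the Lce3 pair, and without a detection call these values may lie near the background of the array. The folds of Lce3e and Lce3f are therefore not exact, and the 3 genes are not ranked by them.

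Rptn gave brighter readings, with a mean at percentile 93.1 of all probe sets against 59.6 for Lce3e and 62.5 for Lce3f. These percentiles describe the probe sets and do not order the genes by transcript number. KO replicates 1 to 4 read 12.39, 11.76, 10.75 and 9.91, and WT replicates 1 to 4 read 10.75, 7.00, 6.44 and 7.29. WT replicate 1 was level with KO replicate 3, and the other WT arrays were below every KO array by at least 2.62 log2 units. The KO mean was 11.20 ± 1.09 and the WT mean 7.87 ± 1.95 (SD, n = 4 per group). The difference was 3.33 log2 units (SE 0.90), or 10.1-fold, and 4.29 (SE 0.54), or 19.6-fold, without WT replicate 1. Its probe set has 18 probes. All 3 probe sets are of cross-hybridisation class 1 in the authors' deposited table, where class 3 marks probes that also match other transcripts.

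**Figure D2:**
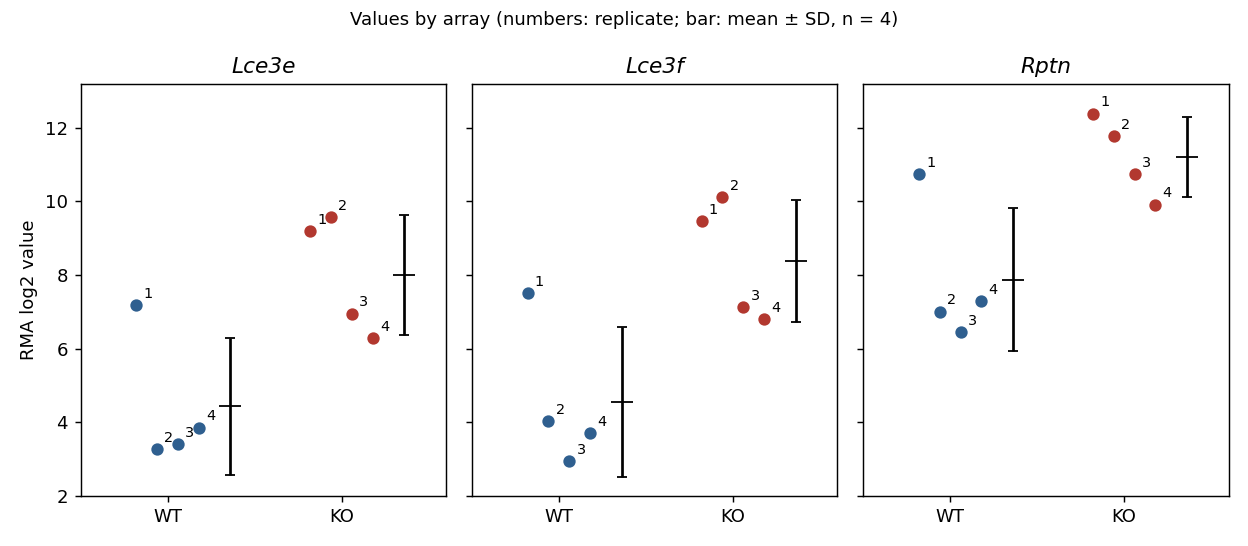
RMA log2 values of Lce3e, Lce3f and Rptn on each array (points, numbered by replicate; WT blue, KO red), with the group mean and SD beside them. In each panel WT replicate 1 lies among the KO points and WT replicates 2 to 4 lie below all of them; in Lce3e the WT arrays read 7.18 against 3.27 to 3.85.

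The 3 genes also shared an order of the arrays. In each gene, KO replicates 1 and 2 were the highest arrays, followed by WT replicate 1, KO replicate 3, KO replicate 4 and then the remaining WT arrays. The last step, those WT arrays below all KO arrays, belongs to the difference that selected the genes. For Rptn, WT replicate 1 and KO replicate 3 both read 10.75. This order was noticed in the values and carries no test: it occurred in 8 of the 3024 named genes, which include these 3, and in 0.663% of all probe sets. WT replicate 1 exceeded the mean of the other WT arrays by 3.68 log2 units for Lce3e, 3.96 for Lce3f and 3.84 for Rptn, whereas the median of that gap over all probe sets was -0.0016. On the way from the mean of WT replicates 2 to 4 to the KO mean it stood at 81.9%, 82.2% and 89.4%. All 4 KO arrays above WT replicates 2 to 4 with WT replicate 1 above the lowest KO array was the pattern of 4.93% of all probe sets and of 70 of the 3024 named genes, or 2.31%.

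Within KO the genes were also far from uniform. The highest and the lowest KO array differed by 3.29 log2 units for Lce3e, 3.31 for Lce3f and 2.47 for Rptn. The KO SDs of 1.09 to 1.66 compare with a median of 0.199 over all probe sets. Spreads of this size also occurred in other named genes, with a KO SD of 1.88 for Ly6g. In the genes named below for the most alike values, it was 1.55 for Defb4, 1.08 for Sprr2h, 0.82 for Klk8, 0.79 for Klk9 and 0.39 for Klk11. KO replicates 1 and 2, high for all 3 genes, also stood apart from KO replicates 3 and 4 on the first principal component. Residual Cdsn was highest in KO replicate 1 at 10.31 and lowest in KO replicate 2 at 8.89. KO replicates 3 and 4 read 9.82 and 9.49. The part of residual Cdsn or of the array-wide shifts in the values of the 3 genes was not tested.

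As a description over the 8 arrays, deviations from the group means correlated at Pearson's r = 0.977 between Lce3e and Lce3f, 0.9497 between Lce3e and Rptn and 0.946 between Lce3f and Rptn. Leaving out WT replicate 1 gave 0.948, 0.906 and 0.886. The points share the array, its scaling and any change in tissue makeup, and neighbouring probe sets are not independent.

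The genes named most alike were defined by Pearson's r over the 8 arrays with the mean of the 3 centred profiles. They were Defb4, a beta-defensin of epithelia (r = 0.995), Sprr2h, a small proline-rich envelope precursor (0.995), and the kallikreins Klk11 (0.994), Klk9 (0.992) and Klk8 (0.991), serine proteases of the upper epidermis that take part in shedding. In deviations from group means the closest was Hars, the cytosolic histidyl-tRNA synthetase gene (0.997), followed by Klk11 (0.993), Defb4 (0.989), Sprr2h (0.988) and Klk9 (0.983). Size did not enter this measure. Klk11 differed by 1.02 log2 units and Hars by 0.65, where Defb4 differed by 3.57, close to Lce3e. In all, 95 of 3021 other named genes had r above 0.95 in values and 25 had it in deviations. Among all 33790 probe sets other than those of the members, 236 had it in values and 76 in deviations. Alike genes were sought only among named genes, which met the criteria of the table. Their median r was 0.711 in values and 0.204 in deviations.

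**Figure D3:**
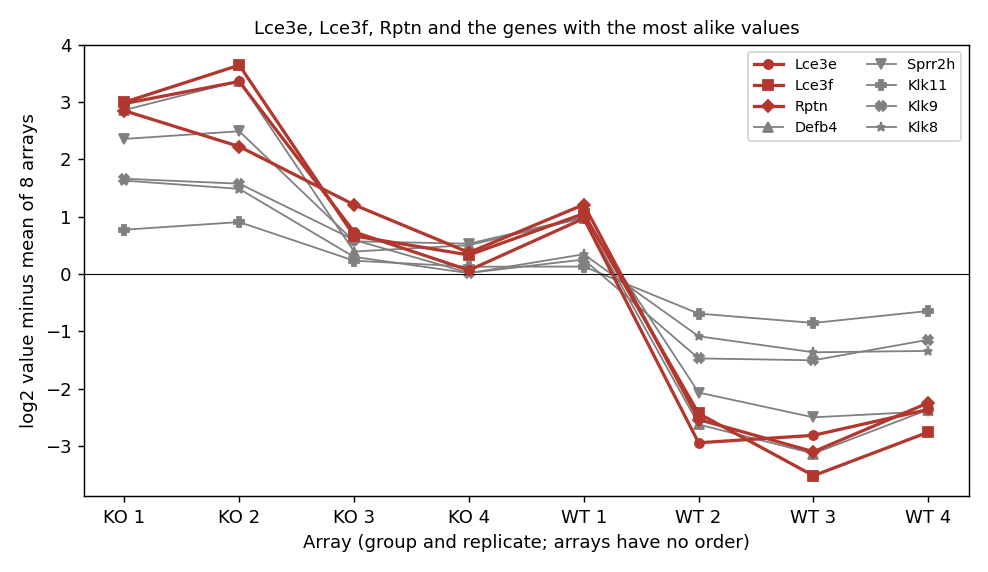
Log2 value minus the gene's mean over the 8 arrays (vertical axis) on each array (horizontal axis; lines join the values of a gene, and arrays have no order) for Lce3e, Lce3f and Rptn (red) and the 5 genes with the most alike values (grey). All lines are highest in KO replicates 1 and 2, run from 0.02 to 1.21 in KO replicates 3 and 4 and WT replicate 1, and are lowest in WT replicates 2 to 4.

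The families around the members were counted in the authors' deposited table, in which every named gene passed limma at adjusted p under 0.05 with a log2 difference of at least 0.5. In the fit over all 33793 probe sets, 13.1% were called at that adjusted p, 9.91% as higher and 3.19% as lower in KO. These shares need no minimum log2 difference and no gene name. Counted in the table like the families, the share was 7.53% of all protein-coding genes of the reference. Of 21 late cornified envelope genes, 2 were in the table, Lce3e and Lce3f, and the 14 Lce1 genes, Lce3a to Lce3d and Lce6a were not. Of 7 fused S100 genes, only Rptn was, and Flg, Flg2, Hrnr, Tchh, Tchhl1 and Crnn were not. A gene outside the table either missed its criteria or was not tested under that name, and its level was not analysed here. A difference between Rptn and its family, or between Lce3e and Lce3d, is therefore not shown.

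Across the epidermal differentiation complex, taken as the 70 protein-coding RefSeq genes from S100a1 to S100a10, 17 genes were in the table, or 24.3%, all of them higher in KO, with a median log2 difference of 2.98. These 17 include Lce3e, Lce3f and Rptn, which were chosen from the table, so that choice sets part of the share and the median. Of all 21900 protein-coding genes of the reference, 1648 were in the table, or 7.53%, 1292 higher and 356 lower, with a median of 0.65. That median covers both directions, and the median of the 2254 named genes higher in KO was 0.71. All these medians cover only genes that met the criteria of the table. In gene order, Lce3e and Lce3f are 57th and 58th, between Lce3d and Crct1, and Rptn is 66th, between Hrnr and Tchh. Without WT replicate 1 all 17 were called by limma; the number was 8 after quantile normalization and as low as 3 with another single array left out. In 9 of the 17, WT replicate 1 lay within the KO range.

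**Figure D4:**
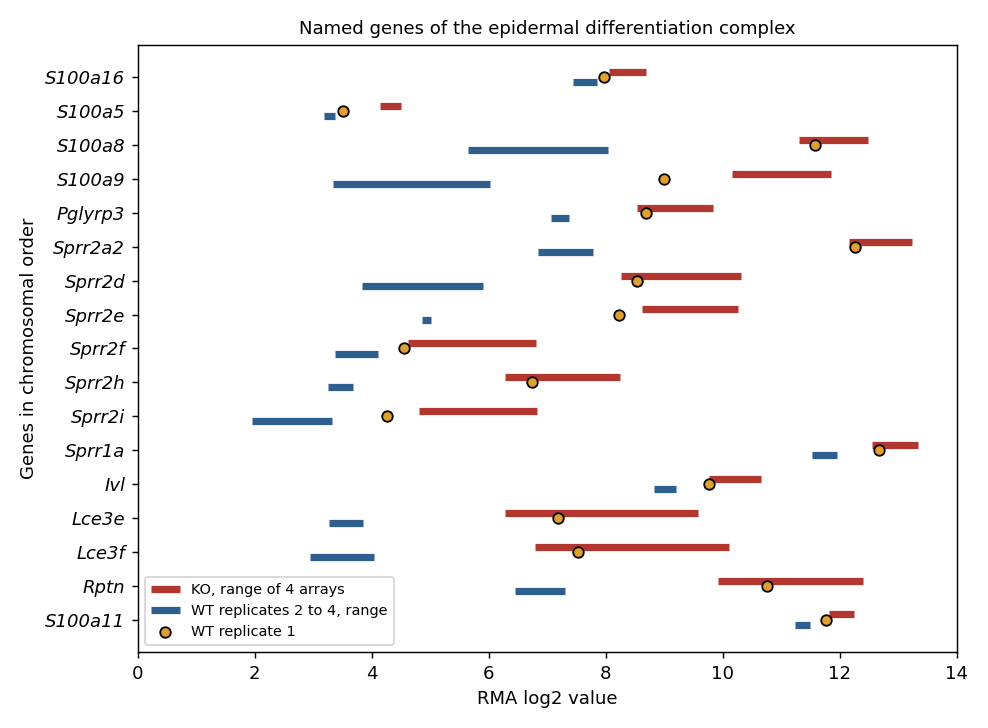
RMA log2 values of the 17 named genes of the epidermal differentiation complex in chromosomal order (vertical axis), with the KO range (red bar), the range of WT replicates 2 to 4 (blue bar) and WT replicate 1 (orange point). Lce3e, Lce3f and Rptn are 3 of the 9 genes whose orange point lies above the lower end of the red bar. Levels of different genes are not comparable on this axis.

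Beside 7.53% of all protein-coding genes in the table, other envelope precursors and their crosslinking enzymes had 3 of 16, all higher in KO. In each the lowest KO array exceeded the highest WT array, as it did in 15.9% of all probe sets. The criteria of the table favour such a gap: the groups were apart, in either direction, in 94.9% of the 3024 named genes. It is therefore no particular trait of these 3 genes. Ivl, which encodes involucrin, an early scaffold of the envelope, rose by 1.10 log2 units (SE 0.25, limma adjusted p = 0.0220). Its KO arrays spanned 9.77 to 10.65, and WT replicate 1 read 9.76, above WT replicates 2 to 4 at 8.83 to 9.19. Tgm1, the main transglutaminase of the envelope, rose by 1.11 (SE 0.25, adjusted p = 0.0225), and Evpl, the plakin envoplakin, by 0.64 (SE 0.13, adjusted p = 0.0178). These rises were smaller than the differences of Lce3e, Lce3f and Rptn, and no test compared them. Dropping single arrays ended the call of Ivl in 5 of 8 fits, of Tgm1 in 4 and of Evpl in 1, with adjusted p of at most 0.0639.

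The small proline-rich family, envelope precursors encoded in the same complex, had 9 of 16 genes in the table, beside 7.53% of all protein-coding genes. All 9 were higher in KO. The median log2 difference of the 9 was 2.99, beside 0.71 over the 2254 named genes that were higher in KO; both medians cover only genes that met the criteria of the table. Its 4 largest were Sprr2j-ps, a pseudogene (4.34, limma adjusted p = 0.00620), Sprr2a2 (4.07, adjusted p = 0.0348, cross-hybridisation class 3), Sprr2e (3.64, adjusted p = 0.0159) and Sprr2d (3.49, adjusted p = 0.0354). WT replicate 1 was within the KO range for 4 of the 9, among them Sprr2a2 (12.26, with WT replicates 2 to 4 at 6.85 to 7.78) and Sprr2d, and below it for Sprr2e and Sprr2j-ps. With single arrays left out, as few as 3 of the 9 were called; Sprr2e and Sprr2j-ps were called each time.

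Beside 7.53% of all protein-coding genes, 4 of 18 regulators of epidermal differentiation were in the table, all higher in KO. They were Grhl3, a grainyhead factor of barrier formation (0.80, limma adjusted p = 0.0289), Cebpb (0.71, adjusted p = 0.0429), Ovol1 (0.63, adjusted p = 0.0292) and Zfp750 (0.55, adjusted p = 0.0275). All 4 lost the call after quantile normalization (adjusted p 0.0661 to 0.105), and 3 of them without WT replicate 1, the exception being Grhl3. Of 7 AP-1 subunits, Fosl1 (1.81, adjusted p = 0.0298) and Junb (1.32, adjusted p = 0.0123) were in the table, both higher. Fosl1 missed the call in 5 of 8 fits that dropped an array and Junb in 0. WT replicate 1 was below the KO range for all 6 of these genes, unlike for Lce3e, Lce3f and Rptn. That is the usual case in the table, where 2.31% of named genes had the pattern of the 3 members. WT replicate 1 was still the highest WT array for Grhl3, Cebpb and Fosl1, but not for Ovol1, Zfp750 and Junb. For Fosl1 it read 7.27, with WT replicates 2 to 4 at 5.55 to 6.68.

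Of 15 cytokine genes of the type 17 and IL-36 group, which act on keratinocytes or are made by them, 5 were in the table. All 5 were higher in KO, and the share of all protein-coding genes in the table was 7.53%. Il1f6, which encodes IL-36 alpha, rose by 2.65 log2 units (limma adjusted p = 0.0193), Il24 by 2.62 (adjusted p = 0.0371), Il1a by 1.92 (adjusted p = 0.0230) and Il17f by 1.17 (adjusted p = 0.00634). WT replicate 1 followed Lce3e for Il1f6, Il24 and Il1a, where it read 8.67, 7.29 and 8.06 against highest values of 6.72, 5.41 and 7.12 in the other WT arrays. It did not for Il17f, which read 4.84 there, while WT replicates 2 to 4 spanned 4.65 to 4.82 and KO 5.39 to 6.28. When single arrays were dropped, the first 3 lost their calls in 4 to 6 of 8 fits (adjusted p of at most 0.0953) and Il17f lost it in 0.

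Most markers of the cells in ear skin were not in the table. Their counts stand beside the 7.53% of protein-coding genes in the table. The 13.1% of all probe sets called is a looser share, as it needs no minimum log2 difference. Suprabasal keratinocyte markers had 3 of 9 genes in the table: Krt1, a keratin (1.88), Casp14, a protease of the granular layer (1.95), and Dsc1, a desmosomal cadherin (0.60). The mean log2 value of these 3 genes was 11.34 to 12.61 in KO, 11.27 in WT replicate 1 and 9.83 to 10.33 in the other WT arrays. Of 9 basal markers, 1 was in the table, Itga3 (0.73). Of 13 neutrophil markers, 5 were, led by S100a9 (5.22) and S100a8 (4.02), both also known from stressed keratinocytes, with Ly6g (2.77) and Cxcr2 (2.53). The mean over the 5 was 7.78 to 9.57 in KO, 7.27 in WT replicate 1 and 4.44 to 5.62 in the other WT arrays. Both means cover only genes that met the criteria of the table. A gap between KO and WT in them follows from that choice and does not describe the whole lists. The part of cell makeup in the differences of Lce3e, Lce3f and Rptn was not tested.

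The remaining marker lists had 0 to 3 members in the table. Of 10 mast cell markers 3 were higher, led by Tpsab1 (4.30), which read 5.17 in WT replicate 1, with the remaining WT arrays at 4.91 to 5.16 and the KO arrays at 8.56 to 10.05. Icos (1.43) and Foxp3 (1.17), genes of activated and regulatory T cells, were the only ones of 11 T cell markers in the table. Of 15 hair follicle markers Krt25, Krt26 and Foxn1 were higher, by 0.50 or more. Fbln1 (0.80) was higher among 7 fibroblast markers and Cdh5 (0.60) among 6 endothelial markers, while Mylk4 (-1.70) was lower among 10 muscle markers. Of the marker genes named here, S100a9, Tpsab1, Icos and Krt26 were called by limma whichever array was dropped, and each of the others missed the call in 2 to 7 of 8 such fits. None of 8 sebaceous gland and none of 12 macrophage and dendritic cell markers was in the table.

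The differences of Lce3e, Lce3f and Rptn kept their direction in every setting tried, between 2.85 and 4.81 log2 units. The highest value of each gene came without WT replicate 1, the only setting that moved a fold difference by more than 1.5 times. Their place in the authors' deposited table was less secure: the table gives adjusted p-values of 0.0457 for Lce3e, 0.0444 for Lce3f and 0.0417 for Rptn, just inside its limit of 0.05. The same criterion was missed by all 3 genes after quantile normalization, after median centring and in 6 of the 8 fits that dropped an array. It was met without WT replicate 1 and without KO replicate 4. It was also met with the replicate number as a block, a pairing that the labels do not state.

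**Figure D5:**
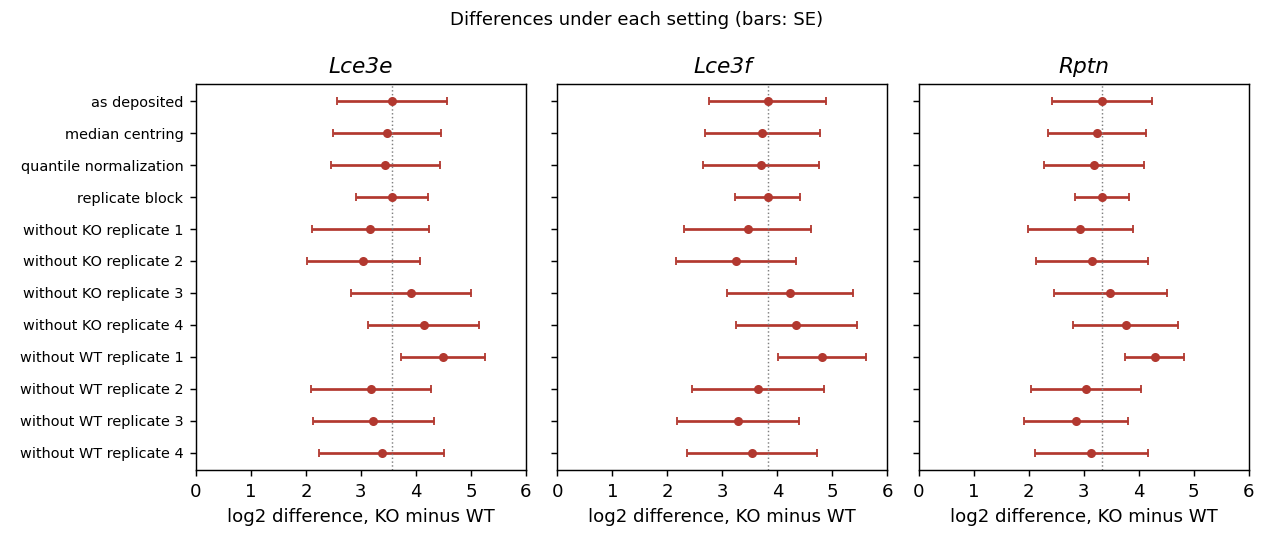
Log2 difference, KO minus WT (horizontal axis, bars SE), of Lce3e, Lce3f and Rptn under each setting (vertical axis); the dotted line is the value from the data as deposited. All values lie between 2.85 and 4.81, and leaving out WT replicate 1 gives the highest value in each panel and a smaller SE than the deposited values.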

How the data were processed

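The authors deposited log2 expression values of 33793 probe sets for each of 8 arrays. RMA produced them, per the submitters' processing notes; its version, options and probe set filter are not given in the sources used here. A second deposited file lists the log2 fold change, linear fold ratio, p-value and adjusted p-value of 3411 probe sets; per the file headers its limits were 0.05 for adjusted p and 0.5 for the log2 change. Of these, 191 had no symbol. Applying these criteria to the fit below gave the same number, 3411. Gene names come only from that table. Of several probe sets for a gene, the brightest on average stood for it.

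KO minus WT was estimated in limma 3.58.1 under R 4.3.3 (empirical Bayes, two-sided, Benjamini-Hochberg over all probe sets) and checked on simulated data. With 4 arrays a group, precision is limited by their number. Each array was a different mouse per the labels. Other work used Python 3.11.15, pandas 2.3.3, numpy 2.4.6, scipy 1.17.1, Biopython 1.88 and matplotlib 3.10.9. Promoter windows were aligned globally (match 1, mismatch -1, gap opening -3, extension -0.5).

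The 3 members and all lists were chosen with earlier results of these data known. Genes were named by rule: Cdsn, the members, all table genes of the envelope families, up to 4 of each other list, and the 5 most alike by each measure, 46 in all. Lists were described by counts beside the background, without a list test. Alternatives were quantile normalization, median centring, a block by replicate number and each array left out. No moderation and dim probe sets (below the median mean) left out were added for the number of calls. They were also added for named genes other than Cdsn and the members. Averaging a gene's probe sets was planned, and each member had 1 in the authors' deposited table. The labels do not state that same-numbered mice were paired, so the numbers were not taken to pair mice. Same-numbered arrays showed correlations of deviations from group means of 0.548, -0.0624, 0.276 and 0.304, which do not decide the question.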

Additional observations from a re-analysis of the deposited data

Results flagged for a closer look

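In 5 of 92 groups of 4 arrays tested among the named genes, 1 array lay far from the others by Dixon's criterion for the gap over the range, and chance alone flags about 1 in 20 groups. In all 5 it was WT replicate 1, but the choice of genes favoured this array in 4 of them: Lce3e is one of the 3 genes described, and Sprr2h, Klk8 and Hars were named because their array profiles resemble those genes. The count of 5 therefore cannot be read against that rate. It read 7.18 for Lce3e (other WT arrays 3.27 to 3.85), 8.22 for Sprr2e (4.86 to 5.01), 6.74 for Sprr2h (3.24 to 3.68), 9.56 for Klk8 (7.85 to 8.13) and 9.91 for Hars (9.39 to 9.48). The gap over the range was 0.851 for Lce3e; Lce3f at 0.763 and Rptn at 0.802 came close to the criterion and missed it. The WT label of this array was not in conflict with its Cdsn value.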

How the results depend on the processing

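The log2 differences of Lce3e, Lce3f and Rptn kept their direction and moved by less than 1 SD under quantile normalization (3.44, 3.70 and 3.19), median centring (3.47, 3.72 and 3.23) and each array left out (3.05 to 4.49, 3.24 to 4.81 and 2.85 to 4.29). Cdsn was called under all of these, with -2.60 to -2.13 when an array was left out. The number of probe sets called, 4428 as deposited, was 718 with dim probe sets left out, 2161 to 3504 with an array left out (2161, 2281 and 2335 on dropping KO replicate 2, WT replicate 2 or WT replicate 3; 2751 and 2883 on dropping KO replicate 1 or WT replicate 4), 3245 without moderation, 3440 after quantile normalization and 3417 after median centring. The share of calls that were higher in KO was 75.7% as deposited, 49.1% after quantile normalization and 53.2% after median centring; the median difference over all probe sets was 0.094, -0.021 and -0.0050. Of the 42 other named genes, 17 lost their call after quantile normalization, 15 after median centring and 35 without moderation. With dim probe sets left out, 26 lost it and 11 kept it, and the rest were themselves left out as dim. With an array left out 6 to 33 of the 42 lost it. Dropping WT replicates 1 to 4 in turn cost 6, 32, 33 and 29 calls. For KO replicates 1 to 4 the cost was 24, 32, 12 and 6. With the replicate number as a block, 5150 probe sets were called, 2 of the 42 genes lost the call, and the differences of Lce3e, Lce3f and Rptn, 3.57, 3.82 and 3.33, did not change by construction, with SEs of 0.66, 0.60 and 0.50; the labels do not say that same-numbered mice were paired. Low readings in WT replicates 2 to 4 limit the folds of the Lce3 genes, as given above.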

Other observations

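The array order shared by Lce3e, Lce3f and Rptn, with KO replicates 1 and 2 above WT replicate 1, then KO replicates 3 and 4, then WT replicates 2 to 4, was found in 5 other named genes, listed here after their values were seen. They were Klk8 (log2 difference 1.72) and Sprr2h (2.98), described above, Galnt6, which encodes an enzyme that starts mucin-type O-glycosylation (1.04), and 2 genes named here only by the symbols of the table, BC117090 (2.98) and 2310042E22Rik (1.49).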
